A study of Vitis vinifera with 6 samples.

Results

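Copia retrotransposons are 1 of the superfamilies of class I transposable elements (TEs) of the grapevine genome, and their transcripts were compared here between embryogenic callus (EC) and leaf tissue of *Vitis vinifera* cv. Chardonnay. A Copia family was every row of the count table whose identifier names the superfamily Copia and class I, which gave 101 of 232 TE families in a table of 32075 genes and TE families. Ribosome-depleted total RNA was sequenced from 3 leaf samples and 3 EC samples, with 1 library per sample. The EC was a proliferating mass of dedifferentiated cells raised from anthers and kept on solid medium in the dark, with cultures of several Petri dishes pooled for each sample, and each leaf sample pooled several young leaves of the same vines. All samples were of a single cultivar, so the groups differed in tissue and in growth on culture medium together, and these cannot be told apart. Beyond the pooling, no source states whether the samples of a tissue came from separate plants or separate cultures, so the p-values measure the spread between these samples.

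Copia elements move by copying themselves through RNA. A full element is flanked by long terminal repeats, is transcribed from its own repeat, and encodes a Gag protein and a polyprotein with protease, integrase, reverse transcriptase and RNase H, in which the integrase lies before the reverse transcriptase, the opposite of the order in Gypsy elements. Plants hold most copies silent through DNA methylation, and several Copia elements of other plants, among them Tos17 of rice and Tnt1 and Tto1 of tobacco, are known for becoming active in cell culture. Of the families in the table only Copia-Tvv1 carries the name of an element described in its own right, the Ty1-copia-like element Tvv1 of grapevine, and the others are numbered families with no function of their own named in the table.

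Reads were assigned to families, not to single insertions. A count can therefore come from an element's own transcript or from a transcript of a gene that holds a copy, and which of these it was cannot be told from the table. Family lengths and copy numbers are not part of the table, so a level here is a share of the sequenced reads, in reads per 1000000 counted reads (RPM), and not a level per length. In bulk tissue, fewer cells that transcribe a family and less RNA per cell cannot be told apart. No gene identifier of the table matched a name in the reference used here (0 matches), so the tissue labels could not be checked against marker genes.

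Between 21914215 and 24209752 reads were counted in 5 of the 6 libraries, and 13123072 in leaf replicate 3. Leaf replicate 3 also had the lowest scaling factor of the trimmed mean of M values (TMM), at 0.658, where its fellow leaf libraries had 0.961 and 0.974 and the EC libraries 1.15 to 1.19. A low factor is given to a library in which few features hold a large part of the reads. Values without this library are therefore given beside the results that it moved most. Counts of 3 reads, taken as the floor of detection, were worth 0.124 to 0.137 RPM in those 5 libraries and 0.229 RPM in leaf replicate 3.

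Copia transcripts took a larger share of the reads in EC than in leaf tissue. The summed Copia level was 3873, 3912 and 4960 RPM in leaf replicates 1, 2 and 3, and 7988, 8304 and 8743 RPM in EC replicates 1, 2 and 3. The 95% Wilson intervals, which cover counting error only, were narrow beside these differences, for example 4922 to 4998 RPM for leaf replicate 3. Every EC library was above every leaf library on this scale, and leaf replicate 3 was the highest of the leaf libraries. The leaf libraries averaged 4248 ± 616 RPM and the EC libraries 8345 ± 379 RPM (SD, n = 3 each), a ratio of 1.96. By exact permutation of the 6 libraries the two-sided p was 0.1, and no smaller value is possible with 3 against 3. It was 0.325 after Benjamini-Hochberg adjustment over the 13 comparisons of single values made here, with all 3 EC libraries higher.

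The size of that difference depended on the scale. In counts per 1000000 of the TMM-scaled library size, which sets most features level between libraries, the Copia sum was 4048, 4041 and 7555 in leaf tissue and 6958, 7003 and 7348 in the EC libraries. On that scale leaf replicate 3 lay above all the EC libraries. The ratio of the means was then 1.36 (exact permutation p = 0.4), and it was 1.76 without leaf replicate 3. The part of the library's make-up in this shift was not tested.

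Among the TE reads the share of Copia hardly differed. Copia families held 26.4, 26.6 and 29.1% of the TE reads in leaf tissue and 27.2% in each EC library. The means were 27.4 ± 1.48% in leaf and 27.2 ± 0.0264% in EC (mean ± SD, n = 3 each), and an exact permutation test gave p = 1.0. The difference was below the spread between the leaf libraries, and most of that spread came from leaf replicate 3. With the LINE families left out of the TE reads, the Copia share was 44.8 ± 3.34% in leaf and 46.9 ± 0.811% in EC (exact permutation p = 0.4).

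A small number of families held most Copia reads, and they were largely the same ones in both tissues. In every library 5 or 6 families sufficed for 50% of the Copia reads and 27 to 29 families for 90%. The 5 most abundant families of the tissue held 46.6, 46.6 and 53.9% of the Copia reads in leaf tissue and 51.4, 51.4 and 51.9% in the EC libraries. The tissue means of 49.0 ± 4.19% (46.6% without leaf replicate 3) and 51.6 ± 0.289% (mean ± SD, n = 3 each) were not separated by an exact permutation test (p = 0.4), and leaf replicate 3 was the highest of all 6 libraries. The tissues shared 4 of their 5 most abundant families and 9 of their 10 most abundant. The effective number of families, computed as the exponential of the Shannon entropy of the family shares, was 28.2, 28.2 and 24.1 in leaf tissue and 26.1, 26.0 and 25.8 in EC (exact permutation p = 0.4).

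**Figure D1:**
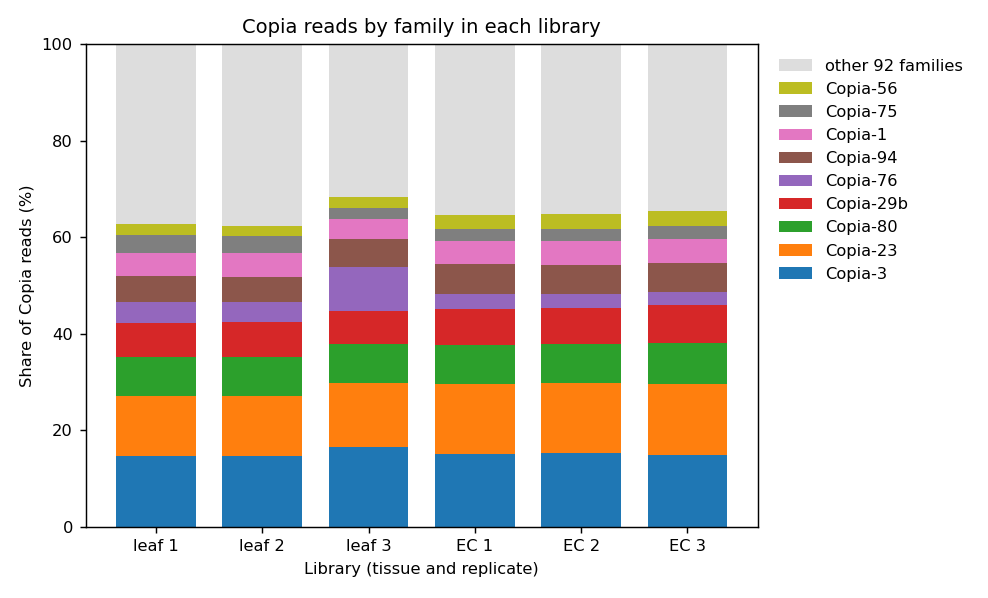
Share of Copia reads (%) held by the 9 families that rank among the 8 most abundant of either tissue, and by the other 92 families, stacked for each of the 6 libraries. The 5 most abundant families of the tissue held 46.6 to 53.9% in leaf and 51.4 to 51.9% in EC, and the band of Copia-76 is widest in leaf replicate 3.

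Copia-3 and Copia-23 were the leading families in both tissues. Copia-3 had 566, 577 and 823 RPM in leaf tissue and 1199, 1265 and 1306 RPM in EC. It thus held 14.6 to 16.6% of the Copia reads in leaf and 14.9 to 15.2% in EC, and was first in every library. Copia-23 had 480, 483 and 654 RPM in leaf and 1169, 1205 and 1286 RPM in EC. In RPM both families were higher in each EC library than in any leaf library. The sum of the pair was 1194 ± 245 RPM in leaf and 2477 ± 113 RPM in EC (means ± SD, n = 3 each), a ratio of 2.07, and the remaining 99 families together went from 3054 ± 372 to 5868 ± 267 RPM, a ratio of 1.92. Each of these sums was higher in all 3 EC libraries, with an exact permutation p of 0.1.

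The reads of Copia-23 for each read of Copia-3 numbered 0.848, 0.838 and 0.794 in leaf tissue and 0.975, 0.953 and 0.985 in the EC libraries, so that the levels of the pair lay closer together in EC. This ratio was taken up after its values had been seen and was not tested.

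Behind them came Copia-80 and Copia-29b. Copia-80 had 316, 324 and 395 RPM in leaf and 639, 675 and 738 RPM in EC. Copia-29b had 277, 280 and 342 RPM in leaf and 601, 628 and 684 RPM in EC. Both kept their rank, the 3rd and the 4th by mean RPM, in the 2 tissues. Copia-94 had 206, 209 and 279 RPM in leaf and 501, 498 and 526 RPM in EC, and Copia-1 had 187, 188 and 209 RPM in leaf and 383, 417 and 436 RPM in EC. As a share of the Copia reads, Copia-80 overlapped between the tissues, with 7.97 to 8.27% in leaf and 8.0 to 8.44% in EC, and Copia-94 did not, with 5.32 to 5.63% in leaf and 5.99 to 6.27% in EC. Copia-94 was not called with the sum of the Copia counts as library size. Its log2 fold change there was 0.16 ± 0.23 (SE, adjusted p = 0.594, edgeR's quasi-likelihood test).

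The fifth place in leaf was decided by 1 library. Copia-76 had 168, 159 and 457 RPM in leaf tissue and 240, 232 and 250 RPM in EC. Leaf replicate 3 was 2.80 times the mean of the other leaf libraries, which both lay below all the EC libraries. By mean RPM Copia-76 was therefore 5th in leaf, ahead of Copia-94, although Copia-94 was the higher of the pair in leaf replicates 1 and 2. Its log2 fold change between EC and leaf was -0.75 (adjusted p = 0.337) with all libraries and 0.29 (adjusted p = 0.0104) without leaf replicate 3, both by edgeR's quasi-likelihood test after Benjamini-Hochberg correction over all features.

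Copia-75 and Copia-56 completed the list of abundant families. Copia-75 was among the 8 highest in leaf, with 140, 136 and 114 RPM there and 194, 209 and 231 RPM in EC. Copia-56 was among the 8 highest in EC, with 239, 249 and 261 RPM there and 88.5, 88.8 and 109 RPM in leaf. In neither family did the tissues overlap in RPM. As a share of the Copia reads, Copia-56 went from between 2.19 and 2.29% in leaf to between 2.99 and 3.00% in EC, whereas Copia-75, with 2.29 to 3.62% in leaf and 2.43 to 2.65% in EC, overlapped. With the Copia sum as library size, Copia-56 had a log2 fold change of 0.41 ± 0.20 (SE, adjusted p = 0.150, edgeR's quasi-likelihood test). Without leaf replicate 3 this was 0.39 ± 0.071 (adjusted p = 0.00182).

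**Figure D2:**
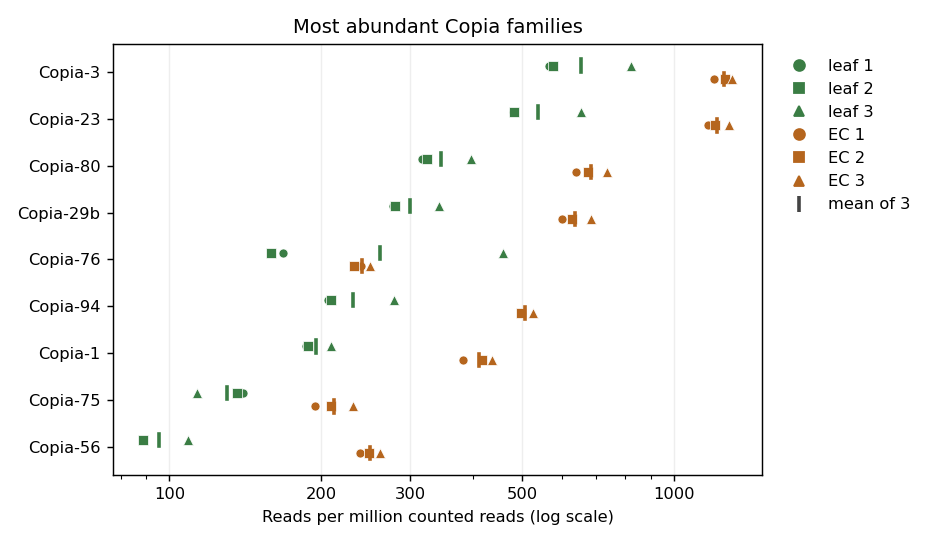
Level in RPM (log scale) of the 9 most abundant Copia families in each library, with circles, squares and triangles for replicates 1, 2 and 3, leaf in green and EC in orange, and a bar at the mean of each tissue. Leaf and EC libraries are apart in RPM for 8 of the families, and overlap for Copia-76 because leaf replicate 3 stands at 457 RPM against 159 and 168.

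The test across all features took TMM-scaled counts of 21550 genes and TE families, and 97 of the 101 Copia families had enough counts to enter it. At an adjusted p under 0.05 (edgeR's quasi-likelihood test, Benjamini-Hochberg over all features), 28 Copia families were more highly expressed in EC, where 24.9% of all features were called in that direction, and 8 were more highly expressed in leaf, where 29.2% of all features were. The share of Copia families called was thus 28.9% towards EC, close to the background, and 8.25% towards leaf, below it. The log2 fold changes had a median of 0.395 (0.693 without leaf replicate 3), and ranged from -2.15 to 4.73. They were above 0 in 69 of the 97 families with TMM scaling, in 81 with library sizes alone, and in 44 when the sum of the Copia counts was used as the library size. The median of all features was -0.0376 with TMM scaling, 0.415 with library sizes alone and -0.589 with the Copia sum, so that the Copia median of 0.93 with library sizes alone and of -0.0292 with the Copia sum are to be read against those shifts. With an additional 2-fold limit, 17 families were left towards EC and 6 towards leaf, against 17.3 and 25.1% of all features.

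These counts depended on single libraries. Without leaf replicate 3, 62 Copia families were called higher in EC and 13 higher in leaf, against 38.5 and 41.3% of all features. Without leaf replicate 1 the counts were 16 and 5 (17.9 and 25.4% of all features), and without leaf replicate 2 they were 17 and 5 (19.6 and 26.6%). Leaving out EC replicate 1 gave 14 and 1 (16.1 and 20.0%), EC replicate 2 gave 16 and 1 (15.8 and 20.1%) and EC replicate 3 gave 14 and 1 (15 and 19.6%). In the fit of all libraries and in each of these 6 fits, 14 families were called higher in EC, namely Copia-2, Copia-12, Copia-26, Copia-28, Copia-50, Copia-52, Copia-57, Copia-65, Copia-70, Copia-71, Copia-81, Copia-84, Copia-85 and Copia-95, and only Copia-7 was called higher in leaf. In the fit of all libraries Copia-52 and Copia-84 passed the count filter only through EC. With library sizes alone as the scale, 56 families were called towards EC and 3 towards leaf, against 33.7 and 22.2% of all features. DESeq2 called 31 and 11 (24.4 and 32.9% of its features), and limma-voom with sample weights 64 and 13 (40.4 and 41% of all features). The limma-voom weight of leaf replicate 3 was 0.0577, and those of the other libraries were 1.05 to 2.71. That fit therefore nearly left out leaf replicate 3 and is not a separate check of the fit without it.

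Most of the abundant families were not called in the fit of all libraries. Among those with at least 100 RPM in the mean of the 6 libraries, 3 of 15 were called, each higher in EC, with a median log2 fold change of 0.566. Between 10 and 100 RPM the counts were 10 and 3 of 32 families, with a median of 0.273, and under 10 RPM they were 15 and 5 of 50, with a median of 0.344. All features were called at 24.9 and 29.2%. Without leaf replicate 3 the medians of the 3 classes were 0.867, 0.596 and 0.54, so that the order of the lower classes depended on that library. The log2 fold change of Copia-3 was 0.40 ± 0.36 (SE) with an adjusted p of 0.387 by edgeR's quasi-likelihood test, and 0.87 ± 0.079 with an adjusted p of 8.44e-05 without leaf replicate 3. For Copia-23 it was 0.64 ± 0.34 (adjusted p = 0.156), and 1.07 ± 0.081 (adjusted p = 3.78e-05) without that library. Of the 9 most abundant families Copia-56 alone was called with all libraries, at 0.87 ± 0.27 (adjusted p = 0.0405). It was no longer called when leaf replicate 1 or 2 or any EC replicate was left out, with adjusted p-values between 0.1 and 0.116. The 8 other families of these 9 were not called with all libraries and were all called higher in EC without leaf replicate 3. That fit called 38.5% of all features higher in EC and 41.3% higher in leaf, so most features were called in it.

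**Figure D3:**
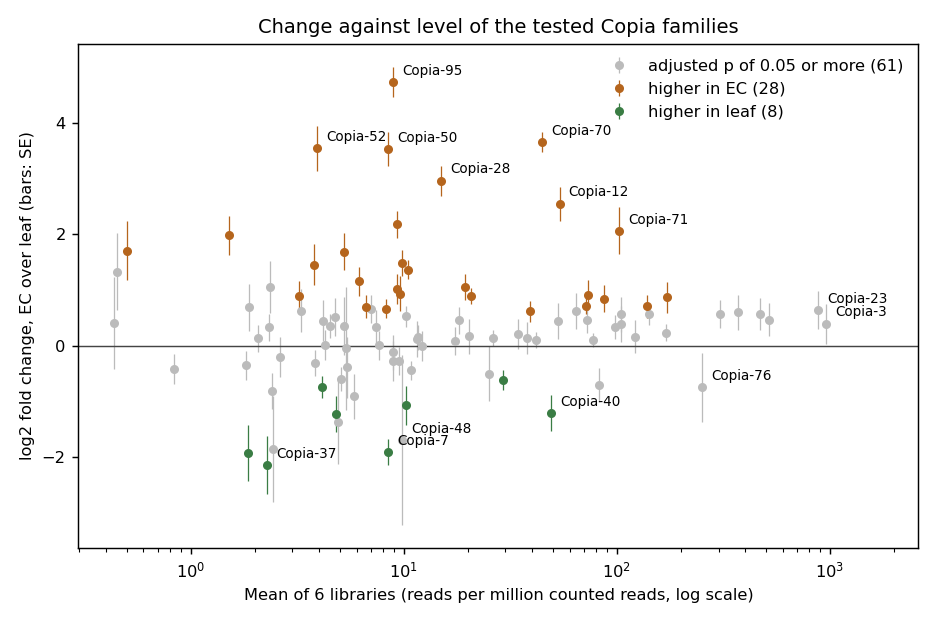
log2 fold change of EC over leaf (edgeR, TMM scaling, bars for the SE) against the mean level of the 6 libraries in RPM (log scale) for the 97 tested Copia families. Orange marks the 28 called higher in EC, green the 8 called higher in leaf and grey the 61 with an adjusted p of 0.05 or more, and the changes above 2 on the log2 scale lie at or below the level of Copia-71, with Copia-3 and Copia-23 far to the right and nearer to 0.

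Of the 8 families with the largest called increases, Copia-71 alone had a mean over 100 RPM across the 6 libraries. Copia-95 was counted 11, 11 and 6 times in leaf tissue and 440, 404 and 354 times in the EC libraries. In RPM this was 0.465, 0.502 and 0.457 against 19.5, 18.1 and 14.6. Leaf libraries were thus a few reads above the floor, and no EC library came near them. The log2 fold change was 4.73 ± 0.27 (SE), with an adjusted p of 2.81e-04 by edgeR's quasi-likelihood test. Its place in the order of families rose from the 92nd in leaf to the 41st in EC.

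Copia-70 combined a large change with a high level in EC. It had 5.37, 5.57 and 3.73 RPM in leaf and 98.0, 82.7 and 72.5 RPM in EC, and so moved from the 59th to the 24th place. The log2 fold change was 3.66 ± 0.18 (SE), with the lowest adjusted p of all Copia families, 2.22e-04 by edgeR's quasi-likelihood test. Its share of the Copia reads was 0.0753 to 0.142% in leaf and 0.829 to 1.23% in EC.

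Copia-52 and Copia-50 were scarce in leaf tissue. Copia-52 was counted 15, 13 and 2 times in the leaf libraries, the last of these below the floor of 3 reads, and 146, 150 and 217 times in EC. Copia-50 had 1.23, 1.37 and 0.457 RPM in leaf and 15.4, 16.3 and 15.9 RPM in EC. In both families leaf replicate 3 was the lowest leaf library and the tissues did not overlap. Copia-52 passed the count filter of the test only through its EC libraries. By edgeR's quasi-likelihood test the log2 fold changes were 3.55 ± 0.40 (SE, adjusted p = 0.00143) for Copia-52 and 3.54 ± 0.31 (adjusted p = 6.89e-04) for Copia-50.

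Copia-28, Copia-12, Copia-85 and Copia-71 followed. Copia-28 had 2.199, 2.65 and 2.67 RPM in leaf and 29.3, 25.3 and 27.8 RPM in EC, a log2 fold change of 2.96 ± 0.27. Copia-12 had 10.7, 9.99 and 13.6 RPM in leaf and 90.5, 103 and 96.0 RPM in EC, a log2 fold change of 2.55 ± 0.31. In both families the leaf libraries were far below the EC libraries. Copia-85 had 3.68, 2.51 and 1.68 RPM in leaf and 16.5, 14.9 and 16.8 RPM in EC, a log2 fold change of 2.18 ± 0.24. Copia-71 was the most abundant of the group, with 23.7, 21.8 and 39.6 RPM in leaf and 172, 180 and 175 RPM in EC, which took it from the 28th to the 12th place. Its log2 fold change of 2.06 ± 0.42 (adjusted p = 0.0099, edgeR's quasi-likelihood test) became 2.68 ± 0.079 without leaf replicate 3, the highest leaf library. The adjusted p-values of Copia-28, Copia-12 and Copia-85 in that test were 7.88e-04, 0.00177 and 0.00133.

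The other 20 families called higher in EC had smaller changes, with log2 fold changes from 0.61 for Copia-11 to 1.98 for Copia-84. They include Copia-42, which was over 100 RPM in EC with 191, 202 and 185 RPM against 84.9, 82.3 and 84.2 RPM in leaf, and Copia-30, with 3, 3 and 4 reads in leaf tissue and 16, 23 and 17 in EC. These examples were chosen after their values had been seen. Copia-30 and Copia-84, and Copia-52 among the largest increases, passed the count filter only through their EC libraries. Their leaf counts alone were too low to enter the test. None of the 28 families called higher in EC had leaf and EC libraries that overlapped in RPM. Of all tested features, called or not, 48.6% had all EC libraries above all leaf libraries in RPM. The calls rest on the same libraries, and without TMM scaling EC stands higher, with a median log2 fold change of all features of 0.415 against -0.0376. The separation in RPM is therefore no further support for the calls.

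Of the 8 families called higher in leaf, 5 had libraries that did not overlap between the tissues in RPM. Of all tested features, called or not, 24.4% had all leaf libraries above all EC libraries in RPM. The clearest was Copia-7, with 15.6, 14.8 and 6.93 RPM in leaf and 3.85, 4.49 and 4.83 RPM in EC. Leaf replicate 3 was the lowest leaf library, and was still above all EC libraries. The log2 fold change was -1.91 ± 0.24 (SE, adjusted p = 0.00189 by edgeR's quasi-likelihood test), and this was the call towards leaf that no single library undid.

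Copia-37 and Copia-61 had few reads in either tissue. Copia-37 had 2.54, 2.69 and 5.03 RPM in leaf and 0.930, 1.44 and 1.03 RPM in EC, that is 59 to 66 reads against 21 to 32. Copia-61 had 1.65, 2.60 and 3.81 RPM in leaf and 1.02, 0.943 and 1.12 RPM in EC. In both, leaf replicate 3 was the highest library. The log2 fold changes were -2.15 ± 0.53 (adjusted p = 0.018) and -1.93 ± 0.50 (adjusted p = 0.0223) by edgeR's quasi-likelihood test, and -1.47 and -1.31 without leaf replicate 3. Neither was called when any of the EC libraries was left out, with adjusted p-values from 0.0551 to 0.0877.

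Copia-63 had 5.84, 5.16 and 6.86 RPM in leaf and 3.06, 4.04 and 3.80 RPM in EC, a log2 fold change of -1.23 ± 0.33 (adjusted p = 0.0232, edgeR's quasi-likelihood test). Copia-89 had 11.3, 10.8 and 14.3 RPM in leaf and 6.03, 9.78 and 9.09 RPM in EC, a log2 fold change of -1.07 ± 0.35 (adjusted p = 0.0453). The values were -0.87 and -0.68, still called, without leaf replicate 3, the highest leaf library of both. Both calls were lost when any EC library was left out, with adjusted p-values from 0.074 to 0.144, and that of Copia-89 also without leaf replicate 1 (0.0605). The remaining calls towards leaf, Copia-24, Copia-40 and Copia-47, had leaf and EC libraries that overlapped in RPM. The calls, however, were made on the TMM scale. On that scale 14 of the 97 tested Copia families had all leaf libraries above all EC libraries (34.1% of all features). In RPM 5 had (24.4%), so an overlap in RPM does not mean an overlap on the scale of the test.

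**Figure D4:**
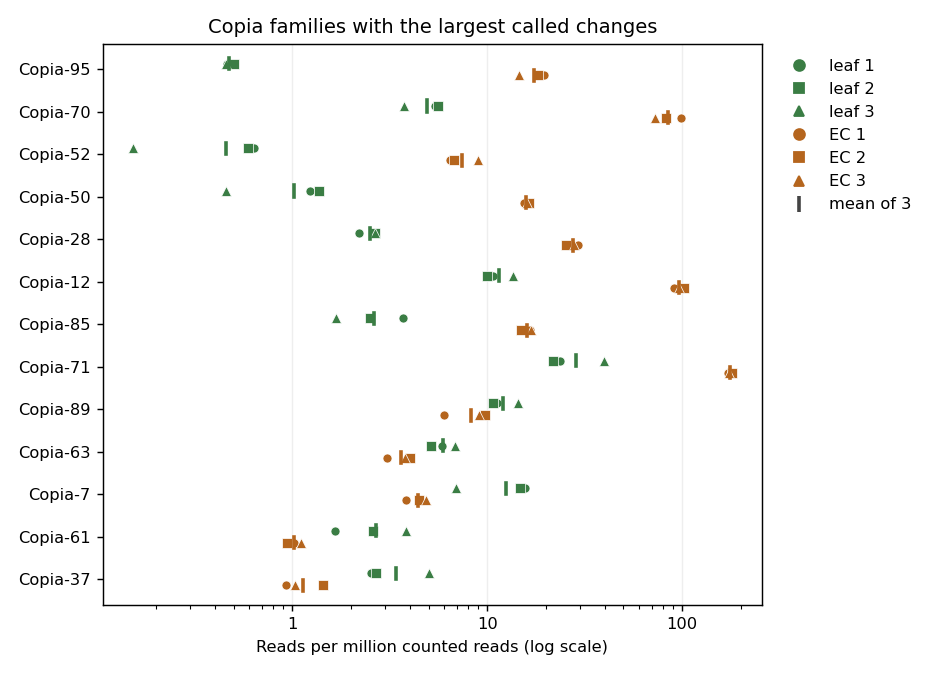
Level in RPM (log scale) of the 8 Copia families with the largest called increase and the 5 with the largest called decrease from leaf to EC, among those whose tissues did not overlap, with symbols as replicates 1, 2 and 3 and a bar at the mean of each tissue. Copia-95 lies at about 0.5 RPM in all leaf libraries and at 14.6 to 19.5 RPM in EC, and Copia-52 is spread most in leaf, from 0.152 to 0.635 RPM.

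The gain in Copia reads came from the abundant families more than from those with the largest fold changes. EC had the higher mean RPM in 82 of the 101 families and the lower in 19, and the total gain was 4096 RPM. This scale raised features in EC in general. With library sizes alone, the log2 fold change was above 0 in 81 of the 97 tested Copia families and in 13103 of all 21550 tested features. Copia-23 accounted for 16.6% of the gain and Copia-3 for 14.7%, followed by Copia-80 and Copia-29b with 8.28 and 8.25% and Copia-94 with 6.75%. These 5 families made up 54.6% of it, and the 10 families with the largest gains 72.3%. The same 5 were the most abundant in EC and held 51.6% of the Copia reads there, so their part of the gain was near their part of the reads. A gain in RPM grows with the level of a family. The 28 families called higher in EC contributed 24.2%. The sum of the 19 families with a lower mean fell by 94.8 RPM, which offset little of the gain.

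The largest losses in mean RPM were those of Copia-40, Copia-76, Copia-49, Copia-7 and Copia-48. Copia-40 had 81.4, 82.4 and 26.0 RPM in leaf and 39.6, 32.9 and 33.6 RPM in EC. Leaf replicate 3 lay below all EC libraries and the other leaf libraries lay above them. The log2 fold change was -1.21 ± 0.33 (adjusted p = 0.0246, edgeR's quasi-likelihood test), and -1.48 ± 0.11 (adjusted p = 3.15e-05) without leaf replicate 3. It was not called when any other single library was left out, with adjusted p-values from 0.0663 to 0.0926. Copia-49 had 74.8, 82.3 and 105 RPM in leaf and 77.6, 72.9 and 81.3 RPM in EC, which overlapped, and a log2 fold change of -0.71 ± 0.31 (adjusted p = 0.0982) that became -0.29 ± 0.080 (adjusted p = 0.0133) without leaf replicate 3, its highest library.

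Copia-48 was in this list because of 1 library. It had 1.14, 1.14 and 36.1 RPM in leaf and 5.67, 7.59 and 7.23 RPM in EC. Leaf replicate 3 was thus 31.6 times the mean of the other leaf libraries, and the EC libraries lay between. With all libraries the log2 fold change was -1.70 ± 1.53 (adjusted p = 0.38, edgeR's quasi-likelihood test), and without leaf replicate 3 it was 2.30 ± 0.21 (adjusted p = 9.52e-05), the opposite direction.

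Leaf replicate 3 stood apart from the other leaf libraries in a number of families. It was more than 2 times the mean of the other leaf libraries in 10 of the 101 families and less than 0.5 times in 11, with a median ratio of 1.12. Further families with large ratios, named after their values had been seen, were Copia-32 with 1.10, 1.00 and 10.3 RPM in leaf and Copia-43 with 1.18, 1.46 and 7.54 RPM. Copia-17 went the other way, with 9.05, 10.04 and 0.762 RPM. Across the 101 families, Pearson's r of log2(RPM + 1) was 0.997 between leaf replicates 1 and 2, 0.944 and 0.945 between these and leaf replicate 3, and 0.997 to 0.998 among the EC libraries. Families are not independent replicates, and the libraries share the annotation and the division of reads among families, so these values only describe the profiles. The median coefficient of variation of a family was 18.4% over the 3 leaf libraries, 4.46% over leaf replicates 1 and 2 and 8.12% over the EC libraries. Whether the plant material or the library accounts for the difference was not tested.

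**Figure D5:**
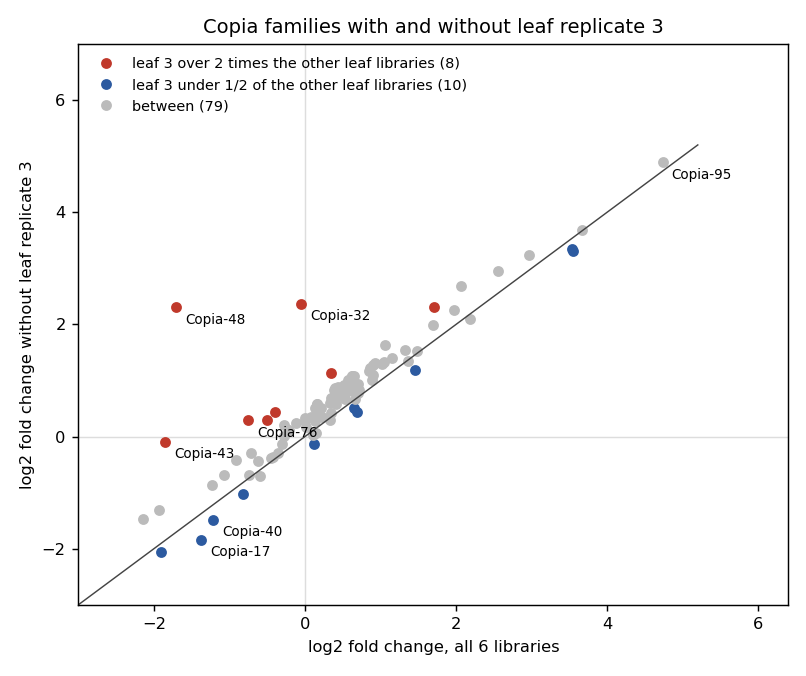
log2 fold change of EC over leaf without leaf replicate 3 (vertical) against that with all 6 libraries (horizontal) for the 97 tested Copia families, with a line where both are equal. Red marks the 8 tested families with leaf replicate 3 at over 2 times and blue the 10 with it under 0.5 times the mean of the other leaf libraries, and Copia-48 lies farthest from the line, at -1.70 with and 2.30 without it.

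Within the Copia reads the families were set against each other by using the sum of the Copia counts as the library size, which removes any common change of the superfamily. On this scale 10 families were called higher in EC and 12 higher in leaf (edgeR's quasi-likelihood test, adjusted p under 0.05), where 9.28% of all features were called towards EC and 34.8% towards leaf. The 10 were Copia-12, Copia-26, Copia-28, Copia-50, Copia-52, Copia-70, Copia-71, Copia-84, Copia-85 and Copia-95, and all of them belonged to the 14 that were called whichever library was left out. Of the 10, Copia-52 and Copia-84 passed the count filter only through their EC libraries. Without leaf replicate 3 the counts on this scale were 25 and 37, with 16.3 and 63.1% of all features. As a share of the Copia reads, 29 of the 97 tested families had all EC libraries above all leaf libraries (19.2% of all features on that scale) and 31 had all leaf libraries above (39.8%).

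Among the leading families, Copia-3 and Copia-80 had values near 0 in this comparison. Copia-3 had a log2 fold change of -0.024 ± 0.27 (SE, adjusted p = 0.95) and Copia-80 of 0.0098 ± 0.24 (adjusted p = 0.978) on the Copia scale by edgeR's quasi-likelihood test. Copia-71 had 0.613, 0.556 and 0.799% of the Copia reads in leaf and 2.15, 2.17 and 2.00% in EC, and a log2 fold change of 1.68 ± 0.23 (adjusted p = 0.00209). Copia-49 went down, from 1.93, 2.1 and 2.12% in leaf to 0.972, 0.878 and 0.930% in EC, with a log2 fold change of -1.15 ± 0.19 (adjusted p = 0.00442), and Copia-40 from 2.1, 2.11 and 0.524% to 0.496, 0.396 and 0.385% (-1.89 ± 0.54, adjusted p = 0.0326). All of the 8 families called towards leaf with TMM scaling were also called towards leaf here, and 18 of the 28 called towards EC were not called.

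The 3 families of at least 50 RPM with the log2 fold change nearest to 0, with TMM scaling and all libraries, were Copia-31, Copia-10 and Copia-75, at 0.10 ± 0.13, 0.16 ± 0.30 and 0.23 ± 0.15 (SE). Copia-31 had 72.0, 74.7 and 43.4 RPM in leaf and 90.3, 87.6 and 97.8 RPM in EC, and Copia-10 had 79.4, 86.3 and 111 RPM in leaf and 142, 153 and 154 RPM in EC. In RPM all EC libraries were above the leaf libraries for these families, and the values turned below 0 when set against the Copia sum, to -0.49, -0.27 and -0.31. None was called on either scale with all libraries. Without leaf replicate 3 and with TMM scaling, Copia-10 (0.58, adjusted p = 2.89e-04) and Copia-75 (0.34, adjusted p = 0.00815) were called higher in EC and Copia-31 was not (0.055, adjusted p = 0.503). Without that library and against the Copia sum all 3 were called higher in leaf, with adjusted p-values of 0.019 for Copia-10, 9.94e-04 for Copia-75 and 5.98e-05 for Copia-31. Copia-27, one of the families with a high ratio of leaf replicate 3 to the other leaf libraries, had 64.8, 63.1 and 88.2 RPM in leaf and 123, 137 and 151 RPM in EC, with a log2 fold change of 0.39 ± 0.32 (adjusted p = 0.342, edgeR's quasi-likelihood test) that became 0.83 ± 0.090 (adjusted p = 1.90e-04) without leaf replicate 3.

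Families that share a number in their names were compared as pairs. Copia-1A had 88.8, 91.6 and 92.3 RPM in leaf and 181, 192 and 198 RPM in EC. For each read of Copia-1 there were 0.475, 0.486 and 0.441 reads of Copia-1A in leaf and 0.473, 0.461 and 0.455 in EC (0.467 ± 0.0238 and 0.463 ± 0.00911, SD, n = 3 each, exact permutation p = 0.9). The ratio of the pair thus differed by less than the spread between libraries while both members had a higher RPM in every EC library than in any leaf library. Copia-18 had 47.6, 46.6 and 52.9 RPM in leaf and 93.8, 94.5 and 98.1 RPM in EC, and Copia-18A 58.7, 58.7 and 80.9 RPM in leaf and 138, 140 and 147 RPM in EC. The ratio of Copia-18A to Copia-18 was 1.23, 1.26 and 1.53 in leaf and 1.47, 1.48 and 1.5 in EC (exact permutation p = 0.4), and leaf replicate 3 was the highest of all. Which reads these similar names share cannot be seen in the table, since reads that map to several families were divided among them before deposit.

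Copia-29 and Copia-29b did not go together. Copia-29 had 6.60, 6.34 and 3.28 RPM in leaf and 4.70, 4.802 and 4.83 RPM in EC, with leaf libraries on either side of EC. The ratio of Copia-29b to Copia-29 was 42.0, 44.1 and 104 in leaf and 128, 131 and 142 in EC, so that every EC library was above every leaf library (exact permutation p = 0.1, the smallest possible, and 0.325 adjusted over the 13 comparisons). The log2 fold changes were -0.60 ± 0.22 (adjusted p = 0.0601) for Copia-29 and 0.57 ± 0.29 (adjusted p = 0.147) for Copia-29b by edgeR's quasi-likelihood test, neither called with all libraries. Without leaf replicate 3 they were -0.71 ± 0.14 (adjusted p = 0.00335) and 0.92 ± 0.081, both called.

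Copia-Tvv1, the family named after the grapevine element Tvv1, was of middle abundance. It had 31.1, 31.9 and 43.97 RPM in leaf and 66.6, 72.1 and 72.5 RPM in EC, and took the 24th place in leaf and the 26th in EC. The tissues did not overlap in RPM, and leaf replicate 3 was the highest leaf library. Its log2 fold change was 0.44 ± 0.32 (adjusted p = 0.279) with all libraries and 0.89 ± 0.067 (adjusted p = 3.69e-05) without leaf replicate 3, by edgeR's quasi-likelihood test. Its share of the Copia reads was 0.804 to 0.887% in leaf and 0.829 to 0.869% in EC, which overlapped.

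Nearly all Copia families were detected in both tissues. Of the 101 families, 96 or 97 were above the floor of 3 reads in each leaf library and 99 in each EC library, and 0 families were without reads in all libraries. The median family had a mean of 6.57 RPM in leaf and 13.6 RPM in EC, and the number of families over 100 RPM was 8 in leaf and 18 in EC. The 4 families whose counts did not pass the filter of the test were Copia-8, with 1 read in leaf replicate 3 and 1 in EC replicate 2, Copia-78, with 10, 5 and 0 reads in leaf and 3, 1 and 3 in EC, Copia-74, with 3, 0 and 2 reads in leaf and 12, 5 and 8 in EC, and Copia-77, with 13, 5 and 5 reads in leaf and 5, 8 and 10 in EC. DESeq2, run without that filter, gave adjusted p-values of 0.285 for Copia-74, 0.402 for Copia-77 and 0.309 for Copia-78 and none for Copia-8. In RPM, 69 of the 97 tested families had all EC libraries above all leaf libraries, beside 48.6% of all tested features, and 5 had all leaf libraries above, beside 24.4%. On the TMM scale these counts were 36 and 14 of 97, beside 35.4 and 34.1%.

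For comparison, of the 117 other TE families tested, 50 were called higher in EC and 7 higher in leaf, with a median log2 fold change of 0.65, beside 24.9 and 29.2% of all features. These became 91 and 12 of 118, with a median of 0.909, without leaf replicate 3, where 38.5 and 41.3% of all features were called. Among the 35 tested Gypsy families, the other large superfamily with long terminal repeats, the counts were 12 and 3 with a median of 0.63, and without leaf replicate 3 they were 29 and 4 with a median of 0.983. The 10 LINE families had a median of 0.57 and 0 were called by edgeR with TMM scaling or by DESeq2 with all libraries (0 and 2 at an unadjusted p under 0.05), although limma-voom with sample weights, edgeR with library sizes alone, and edgeR without leaf replicate 3 each called all 10 higher in EC. These fits, in the same order, called 40.4, 33.7 and 38.5% of all features higher in EC. The limma-voom fit gave leaf replicate 3 a weight of only 0.0577, so it is close to the fit without that library. On the Copia scale the median of the other TE families was 0.159 and that of the Gypsy families 0.156. The difference between the superfamilies was not tested.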

How the data were processed

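Per the paper's methods, the authors trimmed the paired reads of the rRNA-depleted libraries, removed those of tRNA and rRNA, mapped the rest with HISAT2 and ran TEtranscripts, which counts genes and TEs at once and splits reads with several mapping positions among families. They deposited raw counts, without normalisation, for 6 libraries in 1 table. Whether the counting used strand is not given in the sources used here. The pair of chloroplast-like genes that the study removed was absent from the deposited counts. Their reads are therefore in no library total used here. Results that need names of genes (cell type markers, silencing genes) were not analysed here.

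RPM were a family's counts per 1000000 counts of its library. All features of the table entered 1 test in edgeR 4.0.16, run under R 4.3.3 (TMM, filterByExpr by tissue with a minimum count of 10 and a minimum total of 15, glmQLFit with robust dispersion, glmQLFTest), with Benjamini-Hochberg adjustment over the 21550 features tested and a threshold of 0.05. DESeq2, which the study used, was an alternative. A standard error was the absolute log2 fold change over the root of its F statistic. Single values per library were compared by two-sided exact permutation tests with scipy 1.17.1. On counts simulated with these library sizes, 199 of 200 changed features were recovered, with 10 false calls among 22142 tested. The simulation changed only well-counted features, with a median estimated absolute log2 fold change of 1.985. It set less spread between replicates than the common biological coefficient of variation of these data, 0.419, and no deviating library. It checks the procedure and does not give error rates for these data. Wilson intervals at 95% and the floor of 3 counts cover counting error only.

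The families and lists were chosen with earlier results of these data known. Named families were the 8 most abundant of each tissue, the 8 with the largest called change in each direction among those whose tissues did not overlap in RPM (5 qualified towards leaf), the 5 with the largest gain and the 5 with the largest loss in mean RPM, the 3 of at least 50 RPM nearest to no change, families with paired or proper names, families without reads (0 found), and the 3 of at least 50 RPM in leaf with the highest ratio of leaf replicate 3 to the other leaf libraries. These were 33 families. Alternatives were DESeq2 1.42.0 and its size factors, library sizes alone, the Copia sum as library size, gene-based TMM factors, no filter, a minimum of 10 counts in each library, limma-voom with sample weights (limma 3.58.1), a replicate block, a 2-fold limit, other denominators, and each library left out.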

Additional observations from a re-analysis of the deposited data

How the results depend on the processing

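The counts of called Copia families, 28 higher in EC and 8 higher in leaf, were 31 and 11 with DESeq2, 25 and 10 with DESeq2's size factors in edgeR, 28 and 8 with TMM factors from genes alone, 27 and 7 with no filter on low counts, and 24 and 10 with at least 10 counts in every library. They moved further with limma-voom and sample weights, which nearly left out leaf replicate 3 (64 and 13, beside 40.4 and 41.0% of all features). They also moved with library sizes alone (56 and 3, beside 33.7 and 22.2%) and with the Copia sum as library size (10 and 12, beside 9.28 and 34.8%). A 2-fold limit left 17 and 6 (17.3 and 25.1%). With 1 library left out they ran from 14 to 62 and from 1 to 13. Calls higher in EC made up 77.8% of the Copia calls with TMM scaling, 94.9% with library sizes alone and 45.5% with the Copia sum. Of the calls among all features they made up 46.0, 60.3 and 21.0%, so all features shifted with the scale as well. Leaf replicates and EC replicates share numbers in the labels, and deviations from the tissue means correlated at -0.0125, 0.0965 and 0.0961 between libraries of equal number. Deviations from a mean of 3 libraries depend on each other, so these values cannot show whether libraries of equal number shared a plant or a day. With the replicate block the counts were 19 and 3 (17.9 and 23.2% of all features). Of the Copia calls in that fit 86.4% were higher in EC, beside 43.5% of the calls among all features. Leaf replicates 2 and 3 correlated best with the EC library of their own number, and leaf replicate 1 had its highest value, 0.102, with EC replicate 2. Chosen after seeing the data, the Copia sum without leaf replicate 3 gave 25 and 37 (16.3 and 63.1% of all features), and TMM-scaled counts without it a ratio of EC to leaf of 1.76. That ratio was 1.96 in RPM, 1.36 on the TMM scale, 1.995 over gene counts only, and 1.88 to 2.14 with 1 library left out. The Copia share of TE reads became 44.8% in leaf and 46.9% in EC without LINE families. In place of the 5 most abundant families, the 10 most abundant held 66.6% in leaf and 67.3% in EC, and the most abundant alone 15.3 and 15.1%. Some named families changed direction. Set against the Copia sum, the log2 fold changes were -0.27 for Copia-10, -0.021 for Copia-18, -0.044 for Copia-27, -0.49 for Copia-31, -0.024 for Copia-3 and -0.31 for Copia-75. With that scale and without leaf replicate 3 they were -0.25 for Copia-10, -0.080 for Copia-18, -0.021 for Copia-1A, -0.0041 for Copia-27, -0.77 for Copia-31, 1.47 for Copia-48, -0.49 for Copia-75 and -0.0045 for Copia-80. Copia-48 was at 2.25 with limma-voom, 0.73 with the replicate block and 2.30 without leaf replicate 3, Copia-76 at 0.24 with limma-voom and 0.29 without leaf replicate 3, and Copia-10 at -0.027 without leaf replicate 1. With 1 library left out, Copia-48 ran from -2.27 to 2.30, Copia-76 from -1.09 to 0.29 and Copia-10 from -0.027 to 0.58. The causes were not tested. Depth sets a floor of 3 reads, worth 0.124 to 0.229 RPM.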
